A study of Mus musculus with 2 samples.

Results

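The genes described here were taken as every mouse gene whose symbol starts with Ube2 except Ube2o and Ube2c. Most of them encode ubiquitin-conjugating enzymes (E2 enzymes) or close relatives. The rule gave 40 genes of 49997 in the RefSeq gene table, of which 35 are protein-coding and the others long non-coding RNAs or pseudogenes. The members were chosen by symbol, but the set was proposed with these arrays' differences already known. The SoNar-high minus SoNar-low differences below are therefore a description and no test is made of them. The values behind the rule were the signal on each array, the spread between probes of a gene and the difference between the arrays. Ube2o and Ube2c were left out by the rule, and both lay above 0. Ube2o read 2276 units in SoNar-high and 1212 units in SoNar-low cells, a log2 difference of 1.16. Ube2c read 1173 and 942 units, a log2 difference of 0.57, and its other probe gave 1.00.

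SoNar is a genetically encoded fluorescent sensor that reports the balance of NADH and NAD+ in the cytosol. Mouse fetal livers at E13.5 supplied the blood cells, which were sorted by the quotient of sensor fluorescence at a shorter and a longer wavelength into a population with a high value (SoNar-high, strain labelled C57BL/6) and a population with a low value (SoNar-low, strain labelled C57BL). No treatment, sensor allele or further genotype is named for either, and the sources used here do not say how many embryos went into a sort. Total RNA of each population was labelled with Cy3 and hybridised to 1 Agilent array, so every difference is between 1 array and 1 array, without a replicate, and no p-value is given. The error beside a value is that of the scanner software's own error model, which covers the reading of a spot and not the spread between sorts or animals. A processed signal is the spot intensity after background subtraction. A difference is the log2 of the processed signal over its array's 75th percentile, SoNar-high minus SoNar-low, within 1 probe. Signals of different probes are not comparable as amounts of RNA.

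Ubiquitin is passed along a cascade. An E1 enzyme activates it, an E2 enzyme carries it as a thioester, and an E3 ligase brings the loaded E2 to a substrate. The E2 often decides whether a single ubiquitin or a chain is built and through which lysine the chain is linked, which in turn decides between degradation by the proteasome and signalling. Small relatives of ubiquitin such as SUMO, NEDD8 and ISG15 have E2 enzymes of their own. In maturing red cells ubiquitination helps to clear proteins and organelles, and Ube2h and Ube2o are known E2 enzymes of that stage.

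Most Ube2 transcripts read lower on the SoNar-high array, each by a modest amount. Of the 40 genes, 34 had a named probe, 27 were measured on both arrays (most spots of a probe well above background and none saturated), and 7 had no probe above background on either array. No measured member was at least 2-fold higher in SoNar-high cells, where 5.28% of all 10223 measured genes were (540 genes). Ube2o, left out by the rule, was past 2-fold at 1.16, and Ube2c, also left out, was at 0.57. The absence of a 2-fold higher member, and the counts on each side of 0, thus depend on the rule. A single measured member, Ube2v1, was at least 2-fold lower, against 4.44% of all measured genes (454 genes). Below 0 lay 23 of the 27 (85.2%), Ube2j2 by a negligible amount, beside 5706 of all 10223 genes (55.8%). The median difference was -0.38 over the members and -0.08 over all measured genes. The middle of the members ran from -0.58 to -0.20 (quartiles), that of all genes from -0.45 to 0.32. Before any scaling, 25 of the 27 had the larger processed signal on the SoNar-low array, where the 75th percentile was also higher (222 units against 187). That unscaled count includes the difference in brightness between the arrays. The same share over all genes is not given here, so the count adds nothing to the scaled one.

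**Figure D1:**
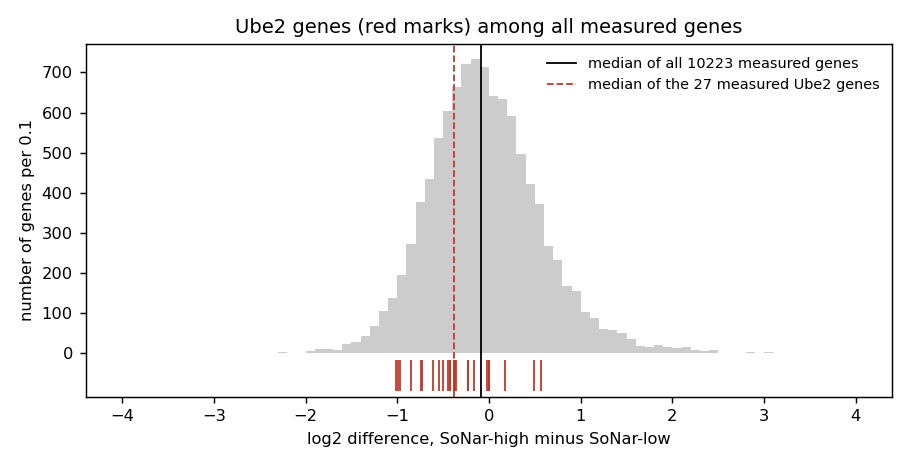
Histogram of the log2 difference (x axis, SoNar-high minus SoNar-low) of all 10223 measured genes, with the number of genes per bin on the y axis and each of the 27 measured Ube2 genes as a red mark below it. The members lie between -1.02 and 0.57, with a median of -0.38 (dashed line) left of the median of all genes at -0.08 (solid line).

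The middle of the members lay below that of all genes. Whether extreme values were rarer among them cannot be told from 27 genes, with Ube2o (1.16) left out by the rule. Below the median of all genes lay 21 of 27, below their lower quartile 9 of 27 (33.3%), and above their upper quartile 2. The differences ran from -1.02 (Ube2v1) to 0.57 (Ube2l6). The zero point depends on how the arrays are scaled. Scaling on the 75th percentile of measured probes in place of all spots put the all-gene median up by 0.18. The members' median was then -0.20, with 20 of 27 members below 0 (74.1%), beside 43.3% of all genes. A loess fit on signal raised the all-gene median by 0.10, again with 20 members below 0, beside 48.5% of all genes. The all-gene split of 540 higher and 454 lower became 817 and 227 with the first of these and 649 and 348 with the second. Relative to the median of all genes the members' median was -0.30, and it stayed between -0.42 and -0.21 under the other settings. Under every setting tried, 18 members were below 0 and 3 above (Ube2h, Ube2l6 and Ube2z). The same count over all genes is not given here. The sign of Ube2b, Ube2d2a, Ube2g2, Ube2j1, Ube2j2 and Ube2q2 changed with the setting.

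The sorted populations differed in composition markers, and in bulk RNA fewer cells of a type and less RNA per cell cannot be told apart. Of 9 measured erythroid markers 7 were at least 2-fold higher in SoNar-high cells, with a summed signal over the 75th percentile of 278 against 138 (Hbb-b1 was not measured on both arrays). With normexp 5 of the 9 were at least 2-fold higher. Such sums add probes of unlike brightness and follow the brightest, here Hba-a1 (36424 and 23134 units). They are no measure of the amount of a cell type. Macrophage markers were 2-fold higher in 7 of 8 (100.3 against 38.3, Cd68 and Timd4 not measured), endothelial markers in 4 of 5 (20.1 against 4.55), hepatoblast markers in 4 of 4 (49.6 against 16.2, Apoa1 and Ttr not measured) and neutrophil markers in 3 of 5 (631 against 348). At least 2-fold lower were 4 of 6 B lymphoid markers (20.8 against 62.8), with all 6 below 0. Natural killer and T markers were mixed, with 4 of 6 at least 2-fold lower (10.7 against 34.0, Il2rb not measured), Cd3e at 0.87 and Nkg7 at 0.22. Stem and progenitor markers were below 0 in 6 of 6 by their brightest probes (69.5 against 107), and Cd34 was 2-fold lower at -1.02. The other Cd34 probe gave -0.39, and the other Hoxa9 probe was above 0 at 0.45. With the loess fit and with scaling on measured probes, Kit and Hoxa9 turned positive and Cd34 was at -0.80 and -0.84. Markers of dividing cells were below 0 in 6 of 7, none by 2-fold (99.1 against 114), with a median of -0.38 (5 of 7 with the loess fit). Measured probes also differed in sign for Tfrc (-0.18 to 0.25), Csf1r (-0.09 to 1.02), Ccnb1 (-0.75 to 0.16) and Birc5 (-0.42 to 0.11). The remaining markers with several measured probes kept the same sign. Among the labelled blood cells, transcripts of hepatoblasts and endothelium were thus present on both arrays. The part of these cell types in the Ube2 differences was not tested.

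**Figure D2:**
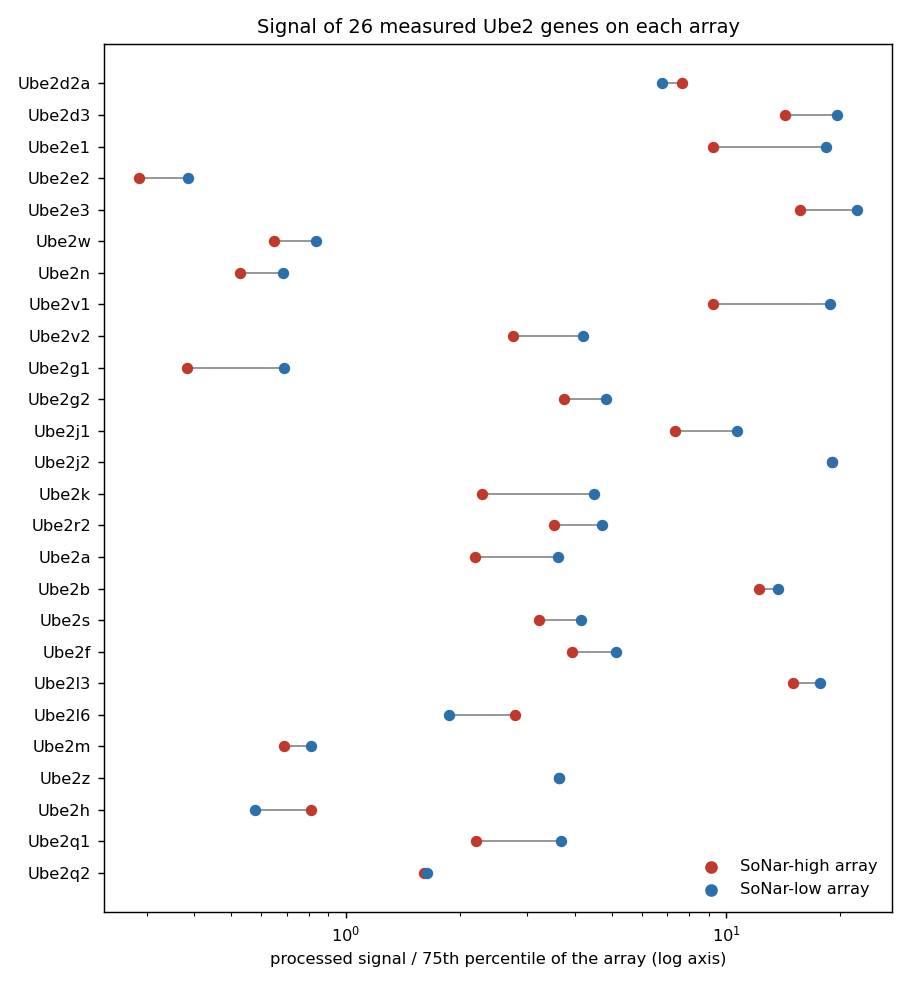
Processed signal over the 75th percentile of the array (x axis, log scale) for the representative probe of 26 measured Ube2 genes (y axis, by role) on the SoNar-high (red) and SoNar-low (blue) array. The red point lies left of the blue one for most genes, and to its right for Ube2d2a, Ube2l6 and Ube2h, while the points of Ube2j2 and Ube2z coincide.

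The start-site windows of the members at the ends of the range are printed as examples and do not stand for the whole set. RefSeq (GRCm38.p6) listed a start-site window for 31 of the 40 members, 21 of them measured, and the 250 bases before the start were searched on both strands. Shown are the 2 highest and the 2 lowest measured members with a listed window, each by its first listed window, 5′ to 3′ on the gene's strand. Capitals mark matches to the GC box (GGGCGG), the CACCC box (CACCC) and the ETS motif (CCGGAAG) or their reverse complements. Bases inside the gene's own annotated span were left off, 160 for Ube2e1 and 15 for Ube2v1.
Ube2l6 (GRCm38.p6 chr2:84798578-84798827, plus strand): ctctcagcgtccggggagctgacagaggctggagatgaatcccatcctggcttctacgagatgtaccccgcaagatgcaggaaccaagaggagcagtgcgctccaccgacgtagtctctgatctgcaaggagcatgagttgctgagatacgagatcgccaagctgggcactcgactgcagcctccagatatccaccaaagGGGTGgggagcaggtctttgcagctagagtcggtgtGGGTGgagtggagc
Ube2h (GRCm38.p6 chr6:30304540-30304789, minus strand): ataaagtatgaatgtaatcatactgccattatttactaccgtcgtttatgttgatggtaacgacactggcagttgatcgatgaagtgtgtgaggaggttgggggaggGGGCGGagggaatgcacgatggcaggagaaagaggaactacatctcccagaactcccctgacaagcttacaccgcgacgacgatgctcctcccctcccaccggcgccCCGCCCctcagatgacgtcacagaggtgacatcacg
Ube2e1 (GRCm38.p6 chr14:18332005-18332094, minus strand): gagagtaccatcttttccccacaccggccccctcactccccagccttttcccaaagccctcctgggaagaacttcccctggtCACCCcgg
Ube2v1 (GRCm38.p6 chr2:167632021-167632255, minus strand): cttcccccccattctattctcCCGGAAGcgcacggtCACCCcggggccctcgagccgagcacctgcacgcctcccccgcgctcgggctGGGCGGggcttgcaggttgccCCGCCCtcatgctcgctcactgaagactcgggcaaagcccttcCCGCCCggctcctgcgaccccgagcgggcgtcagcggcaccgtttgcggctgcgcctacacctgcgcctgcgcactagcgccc
The windows of Ube2h and Ube2v1 held several GC boxes, and that of Ube2l6 none. Positions were counted back from the start site. Ube2h had GC-box matches beginning at -143 and -36. Ube2v1 had 3, beginning at -162, -141 and -98, next to an ETS match at -229 and a CACCC match at -214. Ube2l6 had CACCC matches at -50 and -14, and the stretch shown of Ube2e1 had 1 at -168. The full 250 bases of Ube2e1 also held 4 GC boxes and 1 CCAAT box, all in the part left off.

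Over the 21 measured members with a window, the median G+C content was 68.4%, against 52.4% over all 32851 windows and 55.6% over the 10 members that were not measured. The ratio of observed to expected CpG was 0.84 over the measured members, 0.62 over those not measured and 0.37 over all windows. Those values are for the first window listed for each gene. The motif counts are over all 32 windows listed for the 21 measured members, some of which overlap, because 8 of the genes have several listed starts. The GC box stood in 24 of 32 windows (75%) and in 32.7% of all windows. The CACCC box stood in 21 of 32 (65.6%) and in 52.0% of all windows. GC and CACCC matches can share bases. The ETS motif stood in 8 of 32 windows, of 7 genes (Ube2b, Ube2d3, Ube2f, Ube2j2, Ube2n, Ube2q1 and Ube2v1), and in 6.91% of all windows. The GATA motif (AGATAA, or TGATAA as the other form) stood in 1 of 32, the second listed window of Ube2h, which is not the one shown, and in 16.6% of all windows. An interferon response motif (GAAANNGAA) stood in 2 of 32, both of Ube2d3, and in 7.13% of all windows. The CCAAT box (CCAAT) stood in 4 of 32 and in 33.8% of all windows. The TATA box (TATAAA) stood in 3 of 32, of Ube2h (again the second window), Ube2l3 and Ube2s, and in 12.4% of all windows. The E-box (CACGTG) stood in 2 of 32 and in 6.02% of all windows. The YY1 motif (AAGATGGCG) stood in 2 of 32 and in 0.606% of all windows. The NRF1 motif (GCGCATGCG) stood in 0 of 32 and in 1.45% of all windows. By first listed windows instead, the GC box stood in 15 of 21 measured and 2 of 10 unmeasured members. The CACCC box stood in 15 of 21 and 8 of 10, the ETS motif in 5 of 21 and 0 of 10. The CCAAT box stood in 4 of 21 and 5 of 10. All windows include genes that were not measured, and the part of G+C content in these counts was not tested. Such matches describe letters within these windows only.

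The broadly acting E2 enzymes that load ubiquitin onto many substrates had a median of -0.44 over 6 measured genes, and 5 of the 6 were below 0 under every setting. Ube2e1, whose protein has an extended N terminus before the catalytic core, read 1722 units in SoNar-high and 4079 units in SoNar-low cells. Its difference was -0.99 (scanner error 0.20), that is 1.99-fold lower, and its other probes gave -0.40 and -1.10. All 3 probes thus read lower in SoNar-high cells. The probe at -1.10 was at -0.89 with the loess fit and -0.76 with normexp, short of 2-fold. The related Ube2e3 read 2912 and 4899.6 units, a difference of -0.50, and its other probe gave -1.02. Ube2e2 was the dimmest measured member at 53.5 and 85.7 units, a difference of -0.43 with the largest scanner error of the set (0.33). Ube2e2 came to -0.04 after normexp background correction.

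The Ube2d proteins serve RING and HECT ligases of many kinds. Ube2d3 read 2672 and 4339.8 units, a difference of -0.45, with -0.18 at its other probe. Ube2d2a read 1430 and 1506 units and lay above 0 at 0.18, while its other probes gave -0.25 and -0.05, so no direction held for this gene. The third gene of this family with a probe, Ube2d1, was not above background (6.26 and 9.12 units). Ube2w, which attaches ubiquitin to the N terminus of proteins, read 121 and 186 units, a difference of -0.37, and its other 2 probes were not above background.

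Ube2n builds chains through lysine 63, which act in signalling and DNA damage tolerance, and does so only as a dimer with an inactive E2-like partner, Ube2v1 or Ube2v2. All 3 genes were below 0 under every setting, with a median of -0.61. Ube2v1 had the lowest value of the whole set, 1726 units in SoNar-high and 4168 in SoNar-low cells, a difference of -1.02 (scanner error 0.20) or 2.03-fold lower. That size rests on 1 probe and 1 scaling. The other measured probe of Ube2v1, far dimmer at 61.3 and 53.1 units, gave 0.46, the median over both was -0.28, and the value was -0.68 after normexp and -0.79 after the loess fit. The remaining Ube2v1 probe was not above background.

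Ube2v2 read 515 and 937 units, a difference of -0.61, with -0.45 at its other measured probe. Ube2n itself was dim, at 98.1 and 152 units (-0.38, scanner error 0.24) and at 42.9 and 74.5 units (-0.54) on its other probe. Both measured probes of each gene were therefore lower in SoNar-high cells. Among the ligases that use this dimer, Traf6, which acts in immune receptor signalling, read 156 and 292 units (-0.65), and Rnf8, which acts at DNA breaks, 725 and 818 units (0.08).

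The enzymes of lysine 48 chains, the common mark for the proteasome, and of degradation at the endoplasmic reticulum had a median of -0.48 over 6 genes. Ube2k, which extends lysine 48 chains, read 426 units in SoNar-high and 998 units in SoNar-low cells, a difference of -0.97 (scanner error 0.21) or 1.97-fold lower. Its second measured probe gave -0.80 and the normexp value was -1.06, the lowest of any member under that correction. Ube2g1, which extends chains with cullin ligases, had 1 dim probe at 71.1 and 153 units, a difference of -0.85 (scanner error 0.25). Ube2r2, a partner of SCF ligases, had 1 probe at 659 and 1051 units and a difference of -0.42. These 3 genes were below 0 under every setting.

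The members that act at the endoplasmic reticulum gave no common direction across probes. Ube2g2 had the widest spread of any member, 1.52. One of its probes read 698 and 1077 units (-0.37) and the other 769.9 and 414 units (1.15). The second was over 2-fold higher in SoNar-high cells, the only such probe of the 52 measured. Ube2o and Ube2c, left out by the rule, are not among the 52. Ube2j1, anchored in the membrane, read 1368 and 2376 units (-0.54) on its brightest probe, 464 and 422 units (0.39) on the next, and 91.4 and 94.2 units (0.21) on the dimmest. Ube2j2, also membrane-anchored, read 3535 and 4212 units, which after scaling was a ratio of 1.00, and its other probes gave 0.27 and 0.10. Syvn1, a ligase of this pathway, was at -0.42 (2208 and 3510.3 units).

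Ube2a and Ube2b are the mammalian Rad6 enzymes, which ubiquitinate histone H2B with Rnf20 and Rnf40 and the replication clamp PCNA with Rad18. Ube2a read 408 units in SoNar-high and 804 in SoNar-low cells, a difference of -0.73, while its other probe read 291 and 263 units, a difference of 0.40. Ube2b had 3 probes, with 2280.2 and 3041 units (-0.16) on the brightest and -0.17 and -0.01 on the others, all within the scanner error of 0. With normexp the same probes read -0.61, -0.36 and 0.21, and with the loess fit the brightest was at 0.06. The differences of their ligases were -0.09 for Rnf20, 0.37 for Rnf40 and 0.02 for Rad18. Ube2s, which extends lysine 11 chains on substrates of the anaphase-promoting complex, had 1 probe at 601 and 924 units and a difference of -0.37. Ube2t, the E2 of the Fanconi anaemia pathway, had 1 probe that was not above background on either array (18.9 and 15.9 units). Its ligase Fancl was measured, at 227 and 461 units (-0.77).

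The E2 enzymes that serve HECT and RBR ligases or other modifiers had a median of -0.23 over 6 genes. Ube2l3, which hands ubiquitin to ligases with a catalytic cysteine, had 4 measured probes that did not match each other. The brightest read 2804 and 3922 units (-0.23), the others gave -0.54, -0.93 and 0.37, and the gene's value was close to 0 after the loess fit. Arih1, an RBR ligase it serves, was at -0.07 (116 and 145 units).

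For SUMO, the E1 subunits Uba2 and Sae1 were at -0.69 (3943 and 7564 units) and -0.29 (1186 and 1732 units). The modifier Sumo3 was at -0.46. Sumo2 was at -0.06 on its brightest probe, a value that was positive with the loess fit (0.05). The 5 measured Sumo2 probes ran from -0.99 to -0.06, so that value was the highest of them.

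For NEDD8, which activates cullin ligases, Ube2m read 129 and 180.0 units (-0.23, scanner error 0.23) and Ube2f 735 and 1141 units (-0.38), with -0.62 at the second Ube2f probe. Ube2m works with Rbx1 and Ube2f with Rnf7. Rbx1 was at -0.45 (2979 and 4863 units) and Rnf7 at -0.77 (2261 and 4598 units), although another Rnf7 probe lay at 0.00. Nedd8 itself was at 0.02 and its E1 subunit Nae1 at 0.24 (57.0 and 57.6 units, scanner error 0.35). The other subunit, Uba3, was not measured on both arrays.

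Ube2l6, the E2 of the interferon-induced modifier ISG15, had the highest difference of the set, in a direction opposite to that of most members. It read 518 units in SoNar-high and 416 in SoNar-low cells, a difference of 0.57 (scanner error 0.21) or 1.49-fold higher, and stayed between 0.53 and 0.75 under the other settings. It had 1 probe. The modifier Isg15 was at -0.74 (58.4 and 116 units) and so on the other side of 0 from its E2. The E1 Uba7 was at -0.05 (919 and 1134 units), or 0.16 with the loess fit. Ube2z, which receives ubiquitin from Uba6, read 680.2 and 809.8 units on 1 probe, a difference of 0.00, while Uba6 was at -0.45.

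Ube2h, the E2 of the CTLH ligase and a gene known to be raised in maturing erythroblasts, lay above 0. It read 151 units in SoNar-high and 128 units in SoNar-low cells, a difference of 0.49 (scanner error 0.25) or 1.41-fold higher, between 0.38 and 0.67 under the other settings. The second Ube2h probe was not above background on either array (18.9 and 8.64 units). All 11 CTLH subunits were measured, 8 of them above 0, with a median of 0.27. Ranbp10, a scaffold subunit, read 1446 and 751 units, a difference of 1.20, and was the only CTLH gene at least 2-fold apart. Wdr26 was at 0.66 and Ranbp9 at 0.27. The RING subunits differed in sign, with Maea at -0.17, Rmnd5a at -0.45 and Rmnd5b at 0.58 (111 and 88.7 units). The other Wdr26 probe gave 0.24, and the 3 measured Ranbp9 probes ran from -0.36 to 0.30 and so differed in sign. Maea was positive with the loess fit and with normexp (0.04 and 0.08).

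Among the less studied members, Ube2q1 had 1 probe at 411 and 817 units, a difference of -0.74 or 1.67-fold lower, and was below 0 under every setting. Ube2q2 read 299.7 and 363 units, a difference of -0.02, with -0.23 at its other probe. The probes of Ube2cbp, Ube2d-ps, Ube2dnl2, Ube2ql1 and Ube2u were not above background on either array. Ube2d2b, Ube2dnl1, Ube2l3-ps1, Ube2n-ps1, Ube2nl and Ube2uos had no named probe and were not analysed here.

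**Figure D3:**
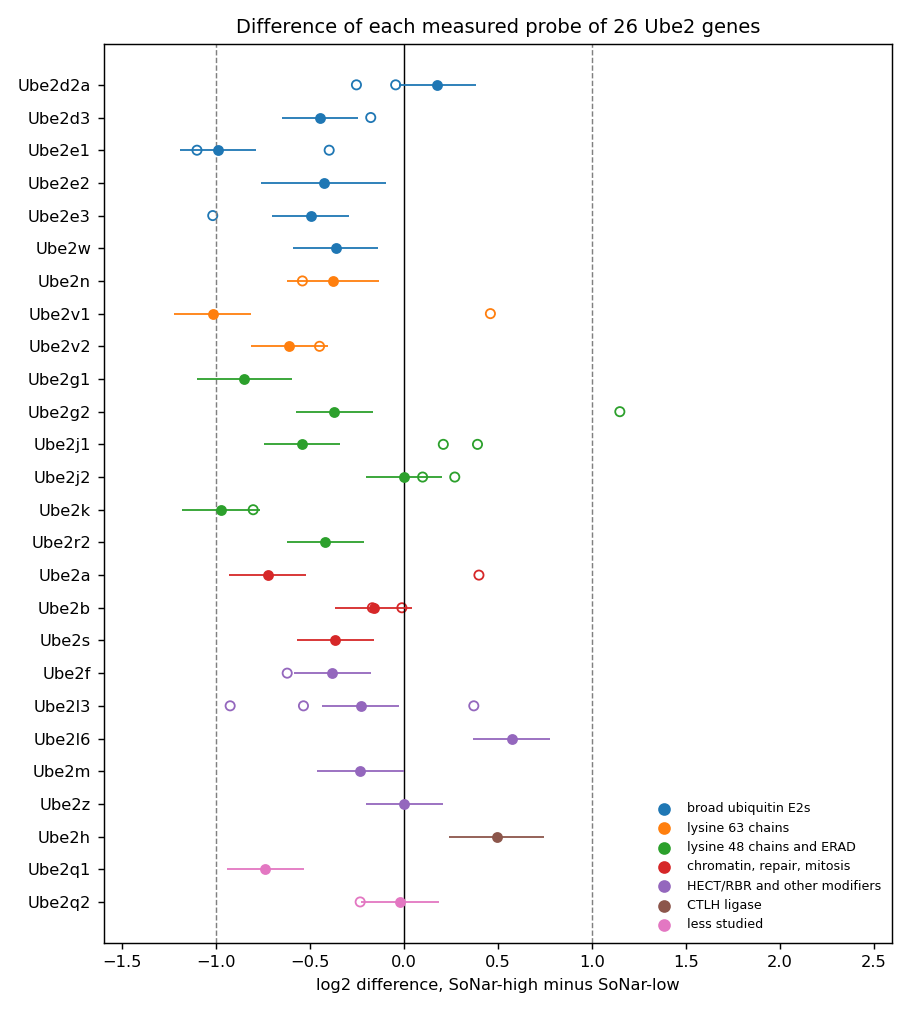
Log2 difference (x axis, SoNar-high minus SoNar-low) of 49 measured probes of 26 Ube2 genes (y axis), coloured by role, with the representative probe filled, bars for its scanner-model error and the other probes open. Dashed lines mark 2-fold. Of these 49 probes, 37 lie below 0, and the probes of Ube2g2, Ube2v1, Ube2l3 and Ube2a lie on both sides of 0 and over 1 apart.

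Counted over probes, the share below 0 was smaller than over genes. Of 52 measured Ube2 probes 40 were below 0 (76.9%), beside 6983 of all 12586 measured named probes (55.5%), with medians of -0.37 and -0.08. At least 2-fold lower were 3 of the 52 probes, 1 each of Ube2v1, Ube2e1 and Ube2e3, and at least 2-fold higher was 1, of Ube2g2. Of all 12586 measured named probes, 544 were at least 2-fold lower and 651 at least 2-fold higher. The split between the sides depends on the rule, because the probe of Ube2o (1.16) and a probe of Ube2c (1.00) were also at least 2-fold higher. None of the 3 lower Ube2 probes was 2-fold lower with the loess fit (-0.79, -0.89 and -0.80) or with normexp (-0.68, -0.76 and -0.81), where 1 probe of Ube2k was. The Ube2g2 probe stayed past 2-fold, at 1.34 and 1.03. Below 0 were 32 of the 52 probes with the loess fit and 39 with normexp. The share over all probes is not given for these settings, but 48.5% and 54.3% of all measured genes were below 0. In 10 of the 17 members with several measured probes (58.8%) all of them were below 0, against 780 of all 2021 genes with several measured probes (38.6%). In no such member were all above 0, against 475 of all such genes (23.5%). That absence depends on the rule, because Ube2c, left out by it, had both measured probes above 0 (0.57 and 1.00). In the other 7 the probes differed in sign (41.2%, against 37.9% of all such genes). The spread between probes of a member had a median of 0.35, against 0.41 over all genes, and exceeded 1 in 4 members: Ube2g2 (1.52), Ube2v1 (1.48), Ube2l3 (1.30) and Ube2a (1.12). Sequences of the probes were not used here, so whether such probes read different transcripts was not tested.

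**Figure D4:**
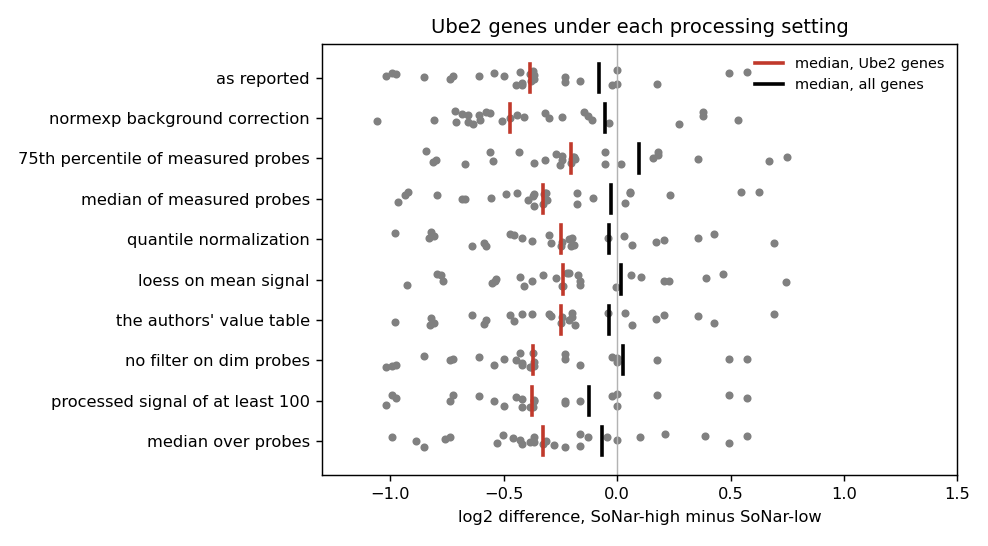
Log2 difference (x axis) of each measured Ube2 gene (grey points) under each processing setting (y axis), with the median of the Ube2 genes in red and that of all measured genes in black. The red bar lies left of the black one in every row, at -0.38 against -0.08 as reported, -0.20 against 0.10 when scaled on the 75th percentile of measured probes, and -0.47 against -0.05 with normexp, where the gap is widest.

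The rest of the pathway gave list medians on both sides of 0. The E1 enzymes had a median of -0.22 over 9 measured genes, with 7 below 0 and none 2-fold apart. Uba1, the main E1 of ubiquitin, read 2541 and 3583 units, a difference of -0.24. E2 enzymes and E2-fold proteins with other symbols resembled the Ube2 genes in their median, -0.36 over 7 genes with 6 below 0. The modifiers had a median of -0.06 over 14 genes, and the sign of that median changed with the setting (-0.15 to 0.12). Of these, Ubb was at 0.24, with -0.10 at its other measured probe. No gene of these 3 lists was at least 2-fold apart.

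Of the ligase lists, cullin-RING ligases and neddylation factors had 12 of 14 genes below 0 and a median of -0.33. Fanconi and repair ligases had 11 of 16 below 0 and a median of -0.29. The anaphase-promoting complex had 10 of 15 below 0 and a median of -0.28, with 1 subunit at least 2-fold higher (Anapc2, 5838 and 3223 units, 1.11) and 1 lower (Cdc16, 541 and 1447 units, -1.17). Cdc16 was short of 2-fold when scaled on measured probes (-0.99) and with the loess fit (-0.96). Neither Anapc2 nor Cdc16 had a second measured probe.

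Above 0 lay the medians of the CTLH list (0.27) and of the ligases of endoplasmic reticulum degradation (0.14 over 11 genes, 7 above 0). HECT and RBR ligases were balanced, with 14 above and 15 below 0 of 29 and a median of -0.07 whose sign changed with the setting (-0.09 to 0.10). SUMO ligases and proteases had a median of -0.05 over 8 genes, also of either sign across settings. No list was tested against the others.

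**Figure D5:**
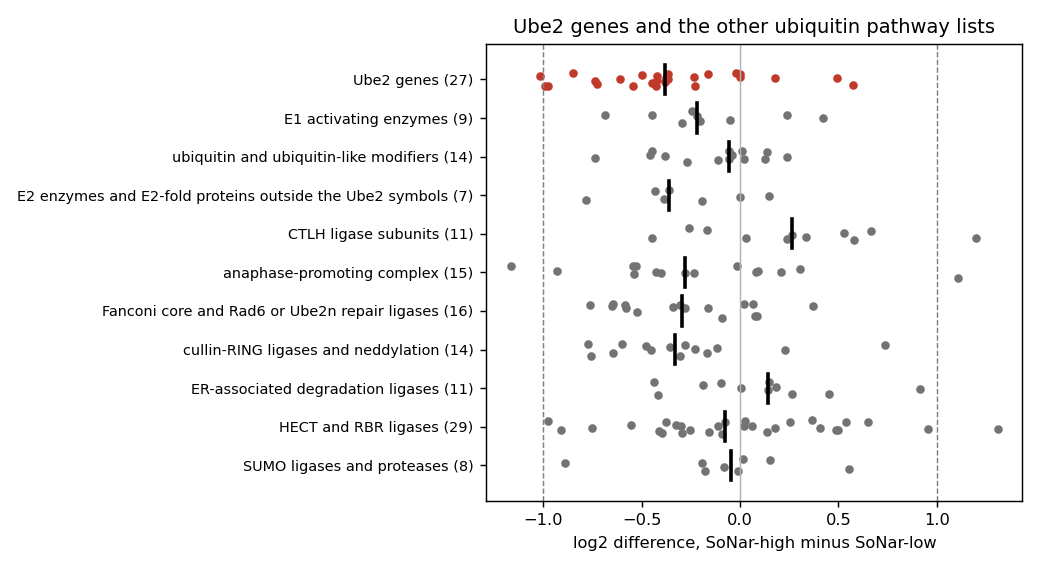
Log2 difference (x axis, SoNar-high minus SoNar-low) of every measured gene of the Ube2 set (red) and of the 10 other ubiquitin pathway lists (grey), with the median of each as a black bar, the number of measured genes in parentheses and dashed lines at 2-fold. The Ube2 median of -0.38 and the cullin list at -0.33 lie left of 0, and the CTLH list at 0.27 to its right.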

How the data were processed

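Blood cells of E13.5 mouse fetal liver were compared between 1 SoNar-high and 1 SoNar-low array, grouped by the source labels. The spot intensities (processed, median and background signals and the software's error) were deposited by the authors as Agilent Feature Extraction output, and per the file headers background had been subtracted in the processed signal. These name version 11.0.1.1 and the submitters' processing notes 9.1, which was not resolved. The authors' deposited value table is in log2 units, and no source used here states its normalization. Both of its columns have a median of 4.80, and it served as an alternative only.

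Outlier and control spots were dropped. The log2 processed signal minus the 75th percentile (43020 non-control spots per array) was averaged over spots of a probe. A probe was measured if, on both arrays, the scanner marked most spots well above background and none as saturated. Well above background were 49.4% of the SoNar-high and 42.4% of the SoNar-low spots, and precision is limited by having so few arrays. The measured probe with the highest mean signal stood for its gene. Probes were named by accession through a RefSeq table (GRCm38.p6, for names only): 27234 matched 1 gene and 12195 none, of 39429.

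With 1 array per group no test was made, and genes were counted by a size of 2-fold. Ube2 members are named, and pathway genes by role or for a difference of at least 2-fold. Some of these, 1 member included, are not reported here by name but are kept in all counts and medians. The members and lists were chosen with earlier results of these data known. Alternatives were normexp (offset 50, limma 3.58.1 in R 4.3.3, on median signals), other scalings, quantile normalization, loess (span 0.3), the value table, no dim-probe filter, a minimum signal of 100, the median over probes and a 3-fold size. A value counted as moved beyond 0.158, the median SD between spots of 213 probes printed 10 times. Counting was tested on simulated data (Python 3.11.15, pandas 2.3.3).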

Additional observations from a re-analysis of the deposited data

How the results depend on the processing

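No paired analysis was possible because each group had 1 array and the labels give no replicate number, and for the same reason no array could be left out. The single Ube2 gene at least 2-fold lower became 0 with scaling on the 75th percentile of measured probes or on their median, quantile normalization, the loess fit, the authors' deposited value table, the median over probes and the 3-fold size. It was 1 with normexp (Ube2k in place of Ube2v1), without a dim-probe filter and at a minimum signal of 100. None was at least 2-fold higher under any of these, with Ube2o and Ube2c left out by the rule. The median Ube2 difference of -0.38 moved to -0.20 with the 75th percentile of measured probes, by the construction of that scaling, and was between -0.47 and -0.24 under the others. Members below 0 numbered 20 to 23 of 27, 27 of 34 without the filter and 20 of 24 at a signal of 100. The shares of all genes below 0 were 43.3% to 55.8%, 48.4% and 59.2% in the same order. Over the 27 genes and these settings 142 values stayed within the spot SD and 98 moved beyond it. Part of this tally was fixed by construction, so it is no measure of robustness. Scaling on the 75th percentile of measured probes shifted every gene by 0.18, more than the spot SD, so all of its values moved. Scaling on their median shifted every gene by 0.05, less than the spot SD. No value changed without the dim-probe filter or at a minimum signal of 100. The median over probes left genes with 1 measured probe as they were. The cause of the other moves was not tested. All genes at least 2-fold higher and lower numbered 540 and 454 as reported, 251 and 257 with normexp, 817 and 227 with the 75th percentile of measured probes, 2476 and 659 without the filter, 329 and 314 at a signal of 100 and 146 and 48 at 3-fold. Signal near background limits the dim members Ube2e2, Ube2g1, Ube2n, Ube2m, Ube2w and Ube2h.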
